A study of Mus musculus with 31 samples.

Results

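The epidermal growth factor (EGF) ligands and the ErbB receptors were followed in kidneys of mice with polycystic kidney disease. Their 10 genes were taken by symbol from the 23509 genes counted in every library. They comprise 6 ligand genes, Egf, Tgfa, Hbegf, Areg, Ereg and Btc, and 4 receptor genes, Egfr, Erbb2, Erbb3 and Erbb4. All 10 were counted in at least some mice and passed the filter on low counts.

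RNA-seq was run on whole kidneys of 31 mice harvested at 30 weeks of age. The PBS group held 12 Pcy/CD1 mice, which carry the pcy mutation on the CD1 background and develop slowly progressing cysts. These mice received subcutaneous phosphate-buffered saline from 5 weeks of age, labelled as weekly per mouse but described as monthly in the protocol. The RGLS4326 group held 14 Pcy/CD1 mice given 25 mg per kg of RGLS4326, a short oligonucleotide inhibitor of the microRNA miR-17, subcutaneously every month over the same ages. The wild-type group held 5 untreated male CD1 mice of the same age. The study describes the Pcy/CD1 mice as male too, so that the pcy mutation and the injections distinguish them from wild type and cannot be told apart. Each mouse is a separate animal.

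EGF-family ligands are made as membrane-anchored precursors that are cut loose by proteases and then bind ErbB receptors on the same or neighbouring cells. Ligand binding joins receptors into dimers, and their kinase domains start Ras, ERK and PI3-kinase signalling. ErbB2 binds no known ligand and ErbB3 has little kinase activity, so both signal mainly as partners of other receptors. In the kidney, Egf is made chiefly by the distal nephron, and EGF-receptor signalling in tubule epithelium is long known for its part in cyst growth.

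RGLS4326 is directed at the seed shared by the miR-17 family, the stretch of bases 2 to 8 with which a microRNA pairs to messenger RNAs. The 6 mature mouse sequences of this family with that seed (RefSeq, GRCm38.p6) are printed 5′ to 3′ with the seed in capitals, because they fix the letters searched for in the EGF and ErbB transcripts. Their genes lie on chromosome 14 for miR-17 and miR-20a (plus strand), X for miR-20b and miR-106a and 5 for miR-93 and miR-106b (minus strand).
mmu-miR-17-5p: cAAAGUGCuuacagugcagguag
mmu-miR-20a-5p: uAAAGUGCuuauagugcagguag
mmu-miR-20b-5p: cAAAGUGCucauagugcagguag
mmu-miR-93-5p: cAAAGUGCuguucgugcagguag
mmu-miR-106a-5p: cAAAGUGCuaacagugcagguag
mmu-miR-106b-5p: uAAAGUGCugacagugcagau

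The longest annotated 3′UTR of each gene was searched on the transcript strand for GCACTTT, the reverse complement of the seed. Tgfa held 1 match, Ereg 2 and Egfr 1, and the other 7 genes held 0. None of the 4 matches was followed by an A, which would have extended it to an 8-base site. The stretches are printed on the plus strand of GRCm38 with the match in capitals, so that the members carrying it can be told from those that do not.
Tgfa, chr6:86273601-86273607, exon 6 of 6: ccaccacgcccaGCACTTTttgattac
Ereg, chr5:91093239-91093245, exon 5 of 5: ggagcataaacaGCACTTTcaggctac
Ereg, chr5:91093371-91093377, exon 5 of 5: cactctgccattGCACTTTgtaaatct
Egfr, chr11:16912039-16912045, exon 28 of 28: ctctctcctgatGCACTTTgggaagtt
Across all tested genes with an annotated 3′UTR, 1933 of 13825 (13.98%) held the same letters. The 3′UTRs with a match were long, 3764 bases in Tgfa, 3501 in Ereg and 6303 in Egfr, against a median of 1145 bases over all genes, while that of Erbb4 held 0 matches in 7855 bases. A match describes the letters in this window and does not show that the microRNA binds there.

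Levels are given as CPM, counts per 1000000 reads on genes after library sizes were scaled by the trimmed mean of M-values (TMM), and between genes as CPM per kb of exon. Counts on genes totalled 14892524 to 27459962 per mouse. RGLS4326 mouse 9 stood apart from its group: its Lcn2, the gene of the tubule injury marker Ngal, was at 2.76 CPM, within the wild-type range of 0.944 to 11.2 CPM and below the 126 CPM or more of the other treated mice, so results that rest on it are given with and without it. The libraries of wild-type mice 3 and 4 differed least from each other, yet by more than sampling noise, and each was kept. The chi-square of their scaled counts per gene was 2.84, against 17.1 to 24.5 for the other wild-type pairs. The library numbers fall into 3 series that restart, each holding mice of all groups. A gene was called when its adjusted p was under 0.05 and its absolute log2 fold change over 0.5, with p from the quasi-likelihood test of edgeR, adjusted by Benjamini and Hochberg over 15185 genes.

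Per kb of exon, Egf was by far the most abundant member in every group. Its level per length averaged 245 ± 39.8 CPM per kb in wild type (SD, n = 5), 108 ± 32.8 with PBS (SD, n = 12) and 139 ± 38.3 with RGLS4326 (SD, n = 14). In wild type the order continued with Erbb3 at 19.5, Erbb2 at 16.3, Hbegf at 10.02, Egfr at 7.38, Btc at 2.76 and Tgfa at 0.813 CPM per kb, and no neighbours in that order overlapped between mice down to Erbb4. Erbb4, Areg and Ereg came last, at 0.151, 0.0489 and 0.0261 CPM per kb, with ranges that overlapped from each to the next.

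In the Pcy/CD1 kidneys the order of the receptors was turned. Erbb2 came second at 21.6 CPM per kb with PBS and 18.7 with RGLS4326, and Erbb3 followed at 12.1 in both groups. With PBS the ranges of Erbb2 and Erbb3 did not overlap. With RGLS4326 they overlapped through mouse 9 alone, at 16.7 for Erbb2 and 17.1 for Erbb3, and the other 13 mice held at least 17.2 for Erbb2 and at most 16.01 CPM per kb for Erbb3. Erbb3, Hbegf, Btc and Egfr then overlapped in their order in both Pcy/CD1 groups. Areg came before Erbb4 in both groups, although their ranges overlapped.

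**Figure D1:**
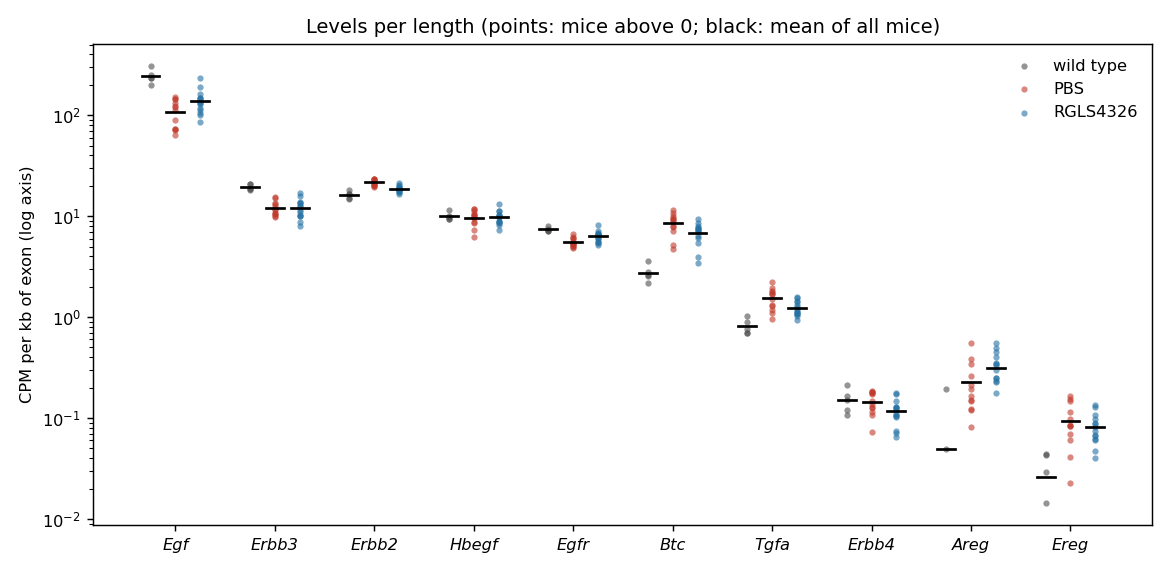
Levels of the 10 genes in CPM per kb of exon on a log axis, with a point for each mouse above 0 and a black bar for the mean of all mice in wild type (grey), PBS (red) and RGLS4326 (blue). Egf lies above every other member in all groups, and by group mean Erbb3 leads Erbb2 in wild type alone.

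The comparison of PBS-treated Pcy/CD1 with wild-type mice asks how the diseased kidney differs. Egf, the ligand that dominated the healthy kidney, fell 2.26-fold, while the genes of Tgfa and Btc rose 1.91- and 3.09-fold. Areg and Ereg stood 4.33- and 3.48-fold higher, on 5 and 9 reads in all wild-type libraries together. Among the receptors Erbb3 fell 1.62-fold. Erbb2 was higher and Egfr lower with adjusted p under 0.05, but both stayed under the size threshold. Hbegf and Erbb4 did not pass the test. In all, 4 members were called higher and 2 lower, where 42.4% of all tested genes were called (24.6% higher, 17.8% lower). By adjusted p alone 5 members were higher and 3 lower, where 74.3% of all genes passed (37.7% higher, 36.6% lower). Areg and Ereg entered the test through the Pcy/CD1 mice, in which they were higher, so the count does not stand for the family. Of the other 8 members, 4 were called, a share near that of all genes. Fewer cells of a type and less RNA per cell cannot be told apart in whole-kidney RNA.

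Egf (chromosome 3, 129677565 to 129755316, minus strand) encodes the EGF precursor. Levels in the wild-type mice were 2401, 1940, 1837, 1825 and 1549 CPM. The PBS group ran from 499 CPM through a median of 901 to 1193 CPM. All 12 PBS-treated mice lay below every wild-type mouse. This gave a log2 fold change of −1.18 (standard error 0.19, edgeR adjusted p = 3.12e-06).

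Tgfa (chromosome 6, 86195223 to 86275719, plus strand) encodes transforming growth factor alpha, an activating ligand of the EGF receptor. In wild type it stood at 4.90, 5.76, 4.56, 4.54 and 6.62 CPM, and the PBS group ran from 6.18 through a median of 10.4 to 14.4 CPM. Of the PBS-treated mice, 11 of 12 lay above every wild-type mouse. The difference was 0.93 on the log2 scale (standard error 0.16, edgeR adjusted p = 7.67e-06).

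Btc (chromosome 5, 91357261 to 91402994, minus strand) encodes betacellulin, which binds the EGF receptor and ErbB4. It read 7.79, 8.08, 6.74, 8.60 and 11.1 CPM in wild type, against a lowest value of 14.6, a median of 27.6 and a highest value of 34.9 CPM with PBS. The groups did not overlap. Its log2 fold change was 1.63 (standard error 0.21, edgeR adjusted p = 8.86e-08).

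Areg and Ereg, which encode amphiregulin and epiregulin, lie close together on the plus strand of chromosome 5, at 91139599 to 91148432 and 91074622 to 91093646, in a stretch that also holds Btc and Epgn, the gene of epigen. Both were rare. The wild-type libraries held 0, 0, 4, 1 and 0 Areg reads and 3, 1, 0, 2 and 3 Ereg reads. With PBS, Areg ran from 0.0997 through a median of 0.219 to 0.678 CPM and Ereg from 0.0928 through 0.352 to 0.676 CPM. Of the 12 PBS-treated mice, 6 exceeded every wild-type mouse in Areg and 10 in Ereg, so the groups overlapped for both.

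For Areg the log2 fold change was 2.12 (standard error 0.68, edgeR adjusted p = 0.00596) and that of Ereg 1.80 (standard error 0.45, edgeR adjusted p = 0.000669). The size for Areg rested on wild-type mouse 3, which held 4 of the 5 wild-type reads. Without that mouse its log2 fold change was 3.76 (edgeR adjusted p = 0.000469).

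Hbegf (chromosome 18, 36504927 to 36515805, minus strand) encodes heparin-binding EGF-like growth factor. Its level in wild type was 22.3, 24.0, 23.1, 22.3 and 27.3 CPM, and with PBS it ran from 14.9 through a median of 23.8 to 28.2 CPM. The groups overlapped, although 2 of 12 PBS-treated mice lay above every wild-type mouse and 4 below. The log2 fold change was −0.047 (standard error 0.12, edgeR adjusted p = 0.73).

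Among the receptors, Egfr (chromosome 11, 16752203 to 16918158, plus strand) read 81.9, 90.3, 84.2, 80.1 and 81.3 CPM in wild type. With PBS it ran from 54.7 through a median of 61.0 to 76.2 CPM, and the groups did not overlap. Its log2 fold change of −0.41 (standard error 0.079, edgeR adjusted p = 3.09e-05) lay under the size threshold.

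Erbb2 (chromosome 11, 98412470 to 98437716, plus strand) went the other way. Wild-type levels were 94.5, 79.1, 86.0, 77.4 and 86.8 CPM, and the PBS group ran from 100.8 through a median of 112.5 to 121.6 CPM. Every PBS-treated mouse exceeded every wild-type mouse. The log2 fold change of 0.41 (standard error 0.055, edgeR adjusted p = 1.75e-07) was also under the size threshold.

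Erbb3 (chromosome 10, 128567523 to 128589652, minus strand) read 124.9, 126.1, 112.6, 109.3 and 113.3 CPM in wild type. With PBS it ran from 58.4 through a median of 69.9 to 93.9 CPM, below every wild-type mouse. On the log2 scale it differed by −0.69 (standard error 0.13, edgeR adjusted p = 2.00e-05).

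Erbb4 (chromosome 1, 68032186 to 69108059, minus strand) was the rarest receptor. It read 1.83, 1.48, 2.603, 1.998 and 1.32 CPM in wild type and ran from 0.888 through a median of 1.75 to 2.26 CPM with PBS. The groups overlapped, with a log2 fold change of −0.064 (standard error 0.21, edgeR adjusted p = 0.79). In all, the groups did not overlap for 5 of the 10 members (Egf, Btc, Egfr, Erbb2 and Erbb3), where this held for 42.2% of all tested genes.

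**Figure D2:**
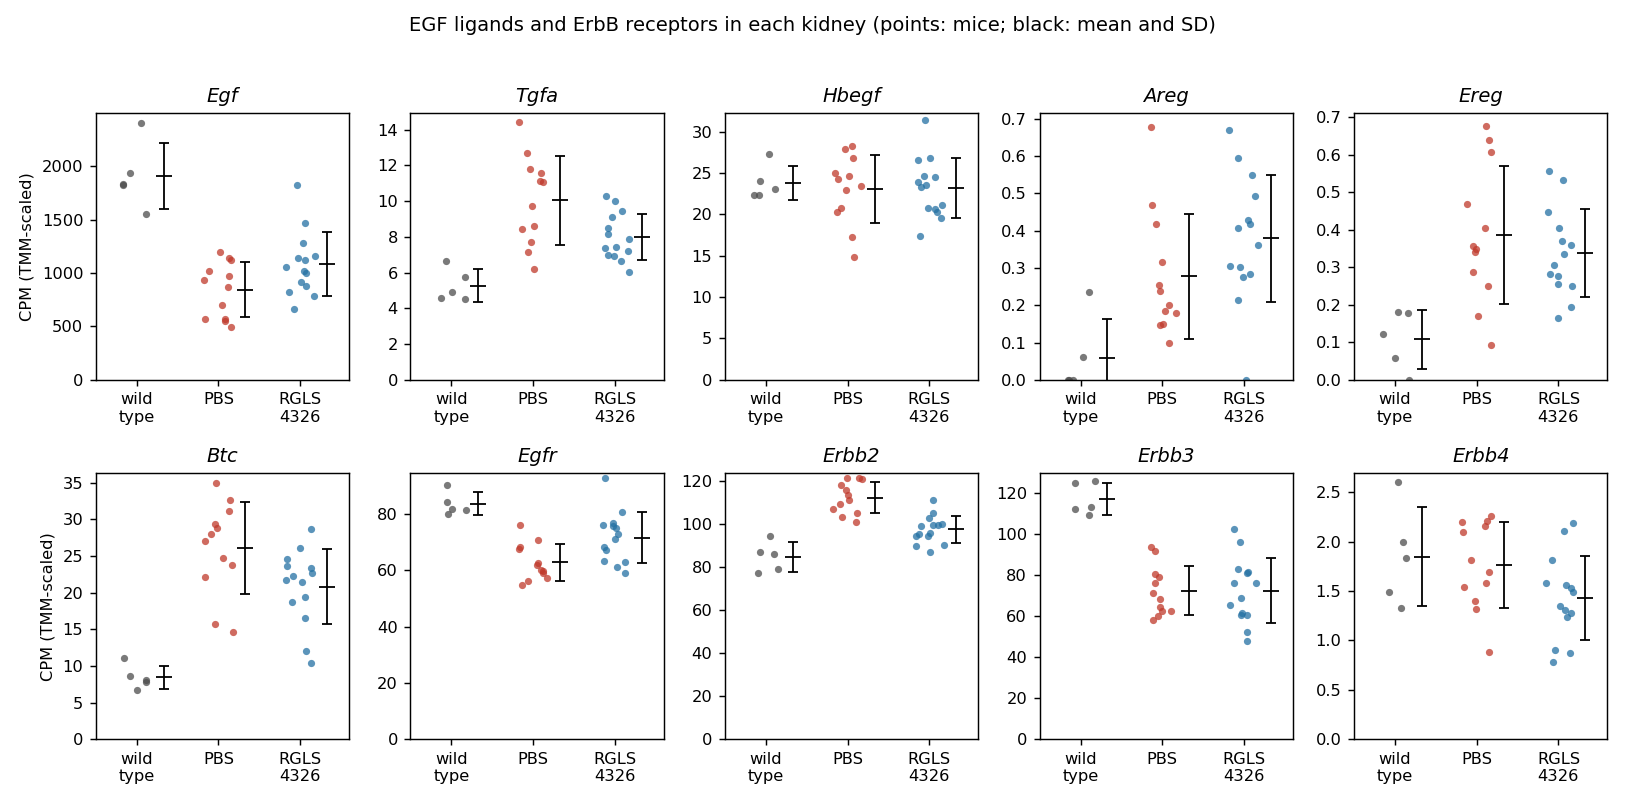
CPM of each gene in every mouse of the wild-type (grey), PBS (red) and RGLS4326 (blue) groups, with the group mean and SD in black beside the points (bars are cut at 0). Egf and Erbb3 separate the wild-type mice above all PBS-treated mice, Btc and Erbb2 below them, and Hbegf and Erbb4 overlap in all groups.

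The makeup of the ligands differed accordingly. Of the summed ligand level per length, Egf held 94.6 ± 1.29% in wild type (SD, n = 5), 83.2 ± 5.64% with PBS (SD, n = 12) and 87.8 ± 3.25% with RGLS4326 (SD, n = 14). Without Egf, Hbegf led the remaining ligands in wild type with 73.4% of their sum against 20.1% for Btc. With PBS the shares were 48.4% and 42.3%, and with RGLS4326 53.9% and 37.1%. The ratio of Egf to Tgfa per length ran from 195 to 409 in wild type, from 28.9 to 161 with PBS and from 54.1 to 229 with RGLS4326. The 229 was mouse 9, and the highest of the other treated mice was at 176, below every wild-type mouse.

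Among the receptors Egfr held 17.1 ± 0.925% of the summed level per length in wild type (SD, n = 5), 14.1 ± 1.05% with PBS (SD, n = 12) and 16.99 ± 1.51% with RGLS4326 (SD, n = 14). Erbb2 held 37.6%, 55.0% and 50.6% and Erbb3 45.0%, 30.5% and 32.1% in the same order, so that with RGLS4326 these larger shares stayed nearer to PBS than to wild type. The ratio of Egfr to Erbb2 per length averaged 0.456 in wild type, 0.259 with PBS and 0.340 with RGLS4326. Wild-type values of this ratio, 0.399 to 0.526, did not overlap those with PBS, 0.207 to 0.324. These shares and ratios are descriptions and were not tested.

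The comparison of RGLS4326 with PBS asks what treatment changed in the diseased kidney. No member was called by the edgeR test or by DESeq2, where edgeR called 2.15% of all tested genes (0.935% higher, 1.22% lower). At an unadjusted p under 0.05 edgeR gave 5 members and DESeq2 also 5, where 36.8% of all genes passed by edgeR and 37.7% by DESeq2. With the adjusted p alone, 3 members passed, where 15.8% of all genes did (9.15% higher, 6.66% lower). Erbb2 and Tgfa were lower and Egfr higher, each in the direction opposite to its difference between PBS and wild type. Since the PBS group stands in both comparisons, that opposition is not independent evidence. The groups overlapped for every member, and the share of all genes without overlap was 0.0%.

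Erbb2 showed the clearest difference. In the RGLS4326 group it ran from 87.3 through a median of 97.7 to 111.1 CPM, and 11 of 14 mice lay below every PBS-treated mouse. Its log2 fold change was −0.20 (standard error 0.039, edgeR adjusted p = 0.00414). Leaving out each of the 31 mice in turn kept its adjusted p between 0.00144 and 0.0103, and without RGLS4326 mouse 9 it was 0.0071.

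Egfr ran from 59.2 through a median of 72.0 to 92.7 CPM with RGLS4326, and 13 of 14 mice lay above the PBS median. It differed by 0.19 on the log2 scale (standard error 0.059, edgeR adjusted p = 0.0357). Without RGLS4326 mouse 9 the adjusted p was 0.0538 at a log2 fold change of 0.18.

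Tgfa ran from 6.06 through a median of 7.67 to 10.3 CPM, and 14 of 14 mice lay below the PBS median. Its log2 fold change was −0.33 (standard error 0.11, edgeR adjusted p = 0.0425). Without RGLS4326 mouse 9 the adjusted p was 0.0687 at a log2 fold change of −0.31. The difference was not seen in each series of libraries, as the PBS and RGLS4326 means stood at 9.19 and 8.95 CPM in the first, 10.3 and 7.37 in the second and 10.6 and 7.87 in the third.

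Egf did not pass the adjustment. It ran from 668 through a median of 1038 to 1826 CPM with RGLS4326, the highest value belonging to mouse 9. Its log2 fold change was 0.36 (standard error 0.15, edgeR adjusted p = 0.085) and 0.28 without that mouse (adjusted p = 0.163). Within the 3 series of libraries the group means of Egf stood at 892 and 945, 818 and 1283, and 824 and 990 CPM for PBS and RGLS4326.

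The remaining ligands also missed the threshold. Btc ran from 10.4 through a median of 22.0 to 28.7 CPM, with a log2 fold change of −0.32 (standard error 0.14, edgeR adjusted p = 0.0874). Hbegf ran from 17.4 through a median of 23.4 to 31.4 CPM, with a log2 fold change of 0.0078 (standard error 0.088, edgeR adjusted p = 0.956). For the rare ligands, Areg differed by 0.45 (standard error 0.32, edgeR adjusted p = 0.312) and Ereg by −0.19 (standard error 0.25, edgeR adjusted p = 0.587) on the log2 scale. Areg ran from 0 through 0.384 to 0.669 CPM, with the 0 in mouse 9, and Ereg from 0.165 through 0.320 to 0.556 CPM. At these counts the standard errors leave room for sizeable differences in either direction.

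Of the other receptors, Erbb3 ran from 48.1 through a median of 72.6 to 102.7 CPM, with a log2 fold change of 0.0015 (standard error 0.098, edgeR adjusted p = 0.992). Its log2 ratio of RGLS4326 to PBS means was 0.01, 0.22 and −0.27 in the 3 series, so they did not share a direction. For Erbb2 these ratios were −0.14, −0.24 and −0.23, and for Egfr 0.13, 0.31 and 0.11. Erbb4 ran from 0.787 through a median of 1.42 to 2.19 CPM, with a log2 fold change of −0.30 (standard error 0.16, edgeR adjusted p = 0.158).

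The members that hold a seed match did not share a direction under treatment. Tgfa stood at −0.33, Ereg at −0.19 and Egfr at 0.19 on the log2 scale, of which Tgfa and Egfr had an adjusted p under 0.05. Across all genes the median log2 fold change was 0.04 for those with a match and −0.01 for those without.

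RGLS4326-treated mice were also set against wild type. In this comparison 4 members were again called higher and 2 lower, where 31.5% of all tested genes were called (20.3% higher, 11.3% lower). Areg and Ereg, again among them, entered the test through the Pcy/CD1 mice. Without them, 2 of 4 ligands were called higher and 1 lower, and 1 of 4 receptors lower. By adjusted p alone 5 of all members were higher and 3 lower, where 64.9% of all genes passed (32.5% higher, 32.4% lower). Egf stood at −0.82, Tgfa at 0.60, Btc at 1.30, Areg at 2.56, Ereg at 1.61 and Erbb3 at −0.69 on the log2 scale, with edgeR adjusted p of 0.000434, 0.00149, 4.46e-06, 0.00104, 0.00268 and 2.95e-05. Erbb3 was the only member whose groups did not overlap, where this held for 14.8% of all genes. For Egf and Btc 13 of 14 treated mice lay outside the wild-type range, and the remaining mouse was mouse 9. Without wild-type mouse 3 the log2 fold change of Areg was 4.21 (edgeR adjusted p = 0.000148).

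**Figure D3:**
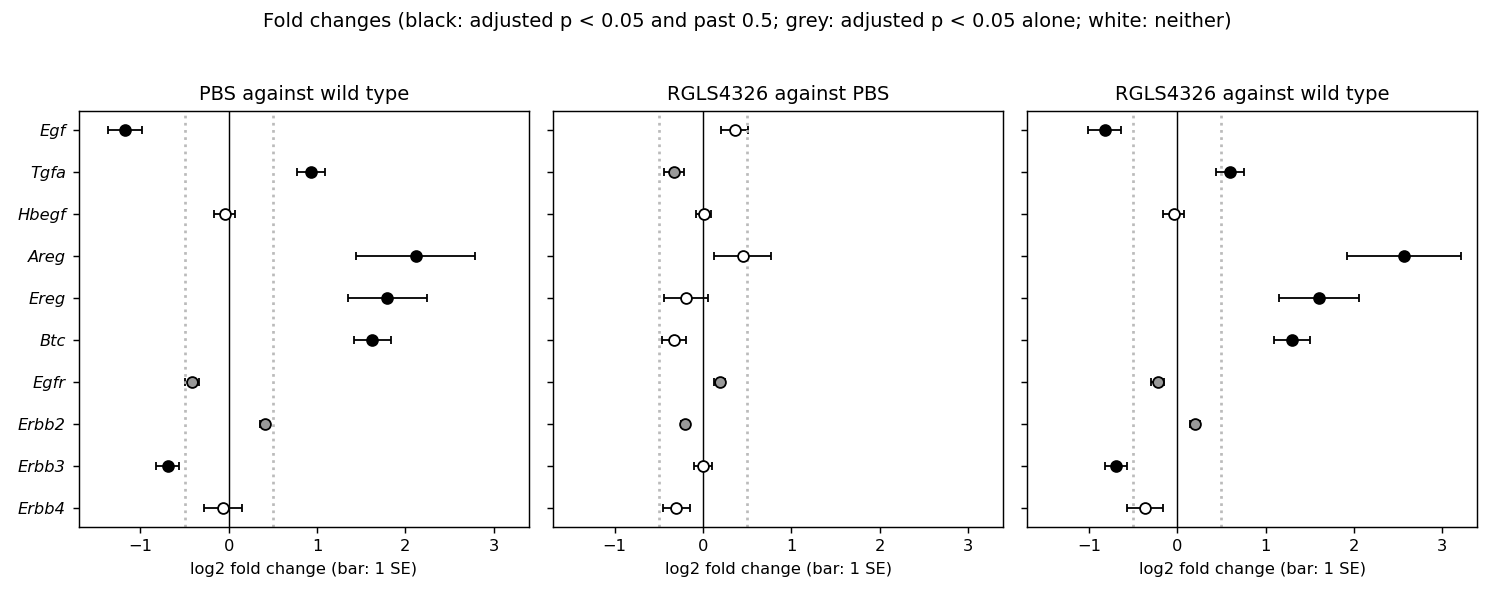
Log2 fold changes of the 10 genes with 1 standard error in the 3 comparisons, black where a gene was called, grey where only the adjusted p was under 0.05 and white where neither held. The middle panel shows no black point, and its grey points are Tgfa at −0.33, Egfr at 0.19 and Erbb2 at −0.20.

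Kidney cell types were followed through marker lists. The markers of the distal convoluted tubule, where Egf is made along with the thick ascending limb, were called lower for 4 of 6 genes and higher for 0 in the PBS group against wild type, where 17.8% of all genes were called lower and 24.6% higher, shares that hold for each marker count of this comparison. Their summed level ran from 1273 to 2000 CPM in wild type, from 908 to 1263 CPM with PBS and from 897 to 1934 CPM with RGLS4326, where mouse 9 was the highest and the others reached 1390 CPM. Pvalb, the gene of parvalbumin, fell by 3.83 on the log2 scale and Slc12a3, the thiazide-sensitive transporter, by 0.68 (edgeR adjusted p = 1.07e-07 and 6.64e-06).

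Of the 6 thick ascending limb markers, 1 was called higher and 2 lower, and their sum overlapped between groups, 5937 to 7392 CPM in wild type and 4631 to 6776 CPM with PBS. Umod, the gene of uromodulin, stood at −0.16 (edgeR adjusted p = 0.0595). All 6 principal cell markers and all 6 fibroblast markers were called higher, as were 5 of 6 macrophage and 5 of 5 lymphocyte markers (2 of 2 without the 3 that lay under the filter's cutoff in at least 1 wild-type mouse), and all 6 proximal tubule markers were called lower. The principal cell sum was 530 to 870 CPM in wild type, 1497 to 3086 with PBS and 831 to 2169 with RGLS4326, where mouse 9 was the lowest and the others began at 1393 CPM. No marker in these lists was at 0 in a whole group. With PBS against wild type, intercalated cell and podocyte markers each had 1 of 6 called higher and 1 lower. Endothelial markers had 0 of 6 called higher and 2 lower. Under treatment edgeR called 1 distal convoluted tubule marker higher, Pvalb, which was not called by DESeq2 or without mouse 9, and 1 principal cell marker lower, Aqp2. Of all genes, edgeR called 0.935% higher and 1.22% lower under treatment. By adjusted p alone all 6 principal cell markers were lower under treatment, with log2 fold changes of −0.56 to −0.32 and edgeR adjusted p of 0.00989 to 0.0352, beside the lower Erbb2 and Tgfa and the higher Egfr. Also by adjusted p alone, 2 distal convoluted tubule and 2 proximal tubule markers were higher and 1 thick ascending limb marker was lower. In that comparison 9.15% of all genes were higher and 6.66% lower by adjusted p alone. The part of such shifts in the differences of the ErbB and EGF genes was not tested.

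Within groups, Egf was lower and Tgfa higher in the mice with more Lcn2. A total of 24 relations were computed on log2(CPM + 1), 12 in each Pcy/CD1 group. The share of all genes related to Lcn2 is not given, so these relations do not set the members apart from other genes. In the PBS group Egf and Lcn2 gave r = −0.93 (permutation p = 3e-05, adjusted 0.00036) and rho = −0.85 (permutation p = 0.00098, adjusted 0.00444), and r = −0.90 without the 2 mice farthest from the median Lcn2. In the RGLS4326 group they gave r = −0.82 (permutation p = 2e-05, adjusted 0.00036) and rho = −0.87 (permutation p = 7e-05, adjusted 0.00084), and r = −0.85 without the 2 farthest. Without mouse 9 alone r was −0.81.

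Tgfa and Lcn2 gave r = 0.91 in the PBS group (permutation p = 6e-05, adjusted 0.00036) and rho = 0.93 (permutation p = 5e-05, adjusted 0.00084), with r = 0.87 without the 2 farthest. In the RGLS4326 group r was 0.57 (permutation p = 0.0167, adjusted 0.0445) and rho 0.75 (permutation p = 0.00283, adjusted 0.0097), with r = 0.66 without the 2 farthest and 0.75 without mouse 9. Each series of libraries holds 4 or 5 mice of a group, too few for a value of its own. After the series means were subtracted, Egf gave r = −0.98 and −0.80 in the PBS and RGLS4326 groups and Tgfa r = 0.92 and 0.51, of which the last did not pass the adjustment (adjusted permutation p = 0.118).

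Egfr and Erbb3 were related to Lcn2 in the same sense as Egf in the PBS group. Egfr gave r = −0.66 (permutation p = 0.0204, adjusted 0.049) and rho = −0.69 (permutation p = 0.0165, adjusted 0.0361), and r = −0.56 without the 2 farthest. Erbb3 gave r = −0.84 (permutation p = 0.00062, adjusted 0.00248) and rho = −0.88 (permutation p = 0.00044, adjusted 0.00352), and r = −0.85 without the 2 farthest. In the RGLS4326 group Egfr gave r = −0.41 (permutation p = 0.137, adjusted 0.194) and rho = −0.71 (permutation p = 0.00531, adjusted 0.0149), and r = −0.74 without mouse 9 (permutation p = 0.00377, adjusted 0.0102). After series means were subtracted, r was −0.73 and −0.30 for Egfr in the PBS and RGLS4326 groups. Erbb3 did not pass in the RGLS4326 group, with r = −0.48 (permutation p = 0.0802, adjusted 0.131), rho = −0.25 (permutation p = 0.392, adjusted 0.479) and r = −0.10 without mouse 9.

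Hbegf, which did not differ between groups by the test, nevertheless followed Lcn2 in the PBS group, with r = 0.76 (permutation p = 0.00376, adjusted 0.0113) and rho = 0.85 (permutation p = 0.00091, adjusted 0.00444), and r = 0.65 without the 2 farthest. In the RGLS4326 group it gave r = 0.25 (adjusted permutation p = 0.497) and rho = 0.24 (adjusted permutation p = 0.479). Whether the groups differ in this was not tested.

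Erbb2, the member with the clearest difference under treatment, had no relation to Lcn2 that passed the adjustment in either group. It gave r = 0.19 (adjusted permutation p = 0.614) and rho = 0.15 (adjusted permutation p = 0.661) with PBS, and r = 0.52 (adjusted permutation p = 0.118) and rho = 0.37 (adjusted permutation p = 0.306) with RGLS4326. The last value was 0.22 for r without mouse 9. Btc gave r = −0.06 with PBS and 0.62 with RGLS4326 (adjusted permutation p = 0.853 and 0.0772), the second of which was 0.07 without mouse 9.

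**Figure D4:**
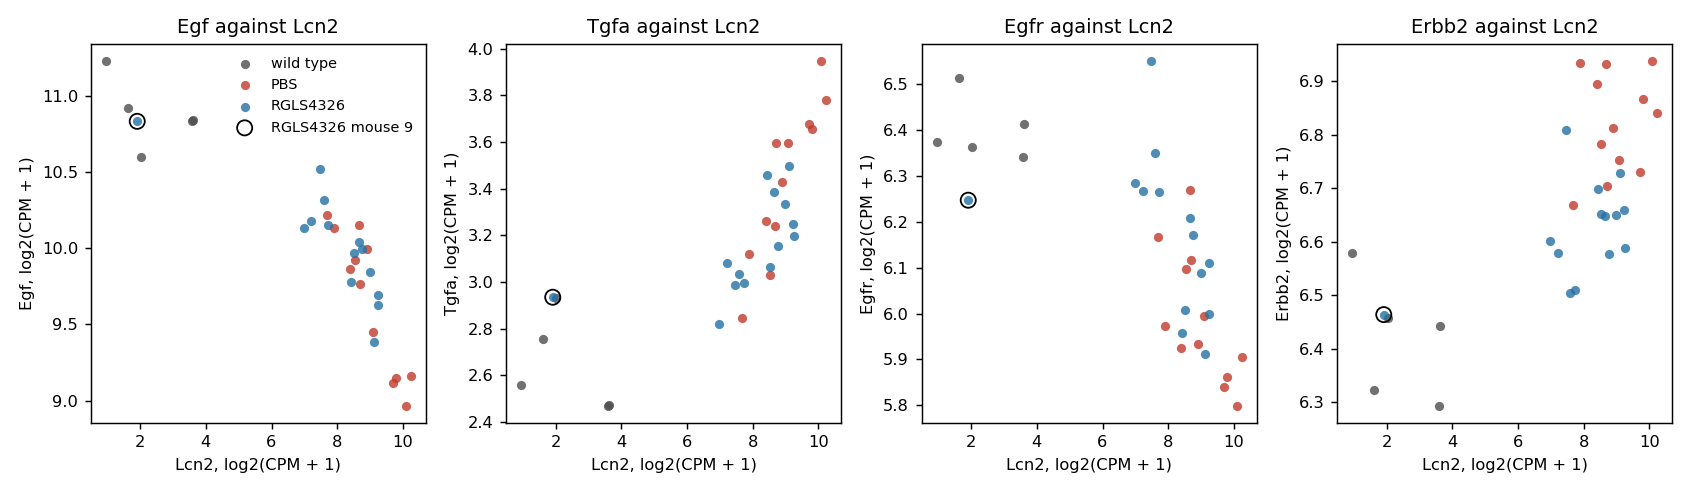
Egf, Tgfa, Egfr and Erbb2 against Lcn2, all as log2(CPM + 1), with a point per mouse and RGLS4326 mouse 9 circled. Egf falls and Tgfa climbs with Lcn2 within both Pcy/CD1 groups, while for Erbb2 no relation passed the adjustment in either. Mouse 9 lies among the wild-type mice in Lcn2.

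Egf also followed the mean of the distal convoluted tubule markers, with r = 0.87 in the PBS group (permutation p = 0.00049, adjusted 0.00235) and rho = 0.85 (permutation p = 0.00111, adjusted 0.00444), and r = 0.84 without the 2 farthest mice. In the RGLS4326 group r was 0.82 (permutation p = 6e-05, adjusted 0.00036) and rho 0.71 (permutation p = 0.00559, adjusted 0.0149), with r = 0.63 without the 2 farthest and 0.76 without mouse 9, which was 0.39 without the 2 farthest of the remaining mice. With the thick ascending limb markers r was 0.47 and 0.54 (adjusted permutation p = 0.178 and 0.0964) and rho 0.46 and 0.42 (adjusted permutation p = 0.234 in both groups).

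Among themselves, the 8 members averaging at least 1 CPM were compared in 28 pairs over 25 Pcy/CD1 mice, after the group means were subtracted and without mouse 9. Of these pairs 9 had an adjusted permutation p under 0.05. That share over all pairs of genes is not given, so the count does not set these members apart. Egf and Tgfa ran in opposite directions, with r = −0.84 and rho = −0.85 (permutation p = 1e-05 for each, the smallest that the resamples can give, adjusted 0.00014 and 0.00028). Egf and Egfr ran together, with r = 0.80 and rho = 0.80 (adjusted permutation p = 0.00014 and 0.00028). Btc and Erbb4 gave r = 0.72 and rho = 0.68 (adjusted permutation p = 0.00056 and 0.00163), and Egfr and Erbb3 r = 0.71 and rho = 0.69 (adjusted permutation p = 0.00063 and 0.00163). Without the 2 mice farthest from the median of the first gene, r was −0.79, 0.75, 0.74 and 0.59 for these 4 pairs, and with series means subtracted −0.85, 0.81, 0.70 and 0.73.

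The genes most like each member were sought by Pearson's r over the same 25 mice among 13784 genes. For Egf these were Rufy3, Hps5 and Dhtkd1 (r = 0.97, 0.96 and 0.96), and for Tgfa Capg, S100a6 and Pygb (0.93, 0.92 and 0.92). Egfr was most like Slc39a10, Zfp106 and Golga4 (0.93 each), and Erbb3 most like Slc25a30, Gpam and Sgms2 (0.90, 0.90 and 0.89). Btc was most like Ivns1abp, Rock2 and Zc3h11a (0.84, 0.84 and 0.82), and Erbb4 most like Ppp1r9a, Cpd and Pkhd1 (0.87, 0.82 and 0.80). Hbegf and Erbb2 had weaker neighbours, Ccdc163 and Zkscan6 for Hbegf (0.80 and 0.78) and Pdgfc, Fam188b and Lrrc61 for Erbb2 (0.79, 0.73 and 0.71). With mouse 9 the value of Erbb2 with Pdgfc was 0.56. These values describe likeness and were not tested.

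The other ErbB ligands were mostly rare. Nrg1, which encodes neuregulin 1, averaged 8.001 ± 1.49 CPM in wild type (SD, n = 5) and 11.1 ± 1.66 CPM with PBS (SD, n = 12), with a log2 fold change of 0.47 (standard error 0.16, edgeR adjusted p = 0.0088) that lay under the size threshold. Nrg4 fell by 0.87 in log2 units (standard error 0.24, edgeR adjusted p = 0.00215), from 2.97 ± 0.191 to 1.63 ± 0.597 CPM. Epgn and Nrg2 did not pass the filter on low counts, with 2 and 10 reads in all wild-type libraries together, and Nrg3 was at 0 in every mouse. Under treatment neither Nrg1 nor Nrg4 was called by edgeR or DESeq2, and 0 had an unadjusted p under 0.05. Of all genes, edgeR called 2.15%, and 36.8% had such a p (37.7% by DESeq2).

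Genes that release the ligands moved unevenly in the PBS group against wild type, with 3 of 10 called higher and 1 lower, where 24.6% of all genes were called higher and 17.8% lower. Rhbdf2, the iRhom2 partner that brings the sheddase ADAM17 to the cell surface, was higher by 1.01 in log2 units (standard error 0.15, edgeR adjusted p = 6.75e-07). Adam12, a membrane metalloprotease, rose by 1.16 (standard error 0.19, edgeR adjusted p = 2.98e-06), and Cnih2 was the other gene called higher. Like Areg and Ereg, Cnih2 entered the test through the Pcy/CD1 mice, with 11 reads in all wild-type libraries together, and without it 2 of 9 were called higher and 1 lower. Adam9 fell by 0.56 (standard error 0.098, edgeR adjusted p = 9.21e-06). Adam17 itself stood at 0.10 (edgeR adjusted p = 0.193). The list's median log2 fold change was 0.14 with Cnih2 and 0.10 without it, against 0.01 over all genes. Under treatment 0 were called by edgeR or DESeq2, with 2 and 4 at an unadjusted p under 0.05, where 36.8% and 37.7% of all genes had one.

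Of 22 genes that relay the signal inside the cell, 1 was called higher and 3 lower with PBS, where 42.4% of all genes were called, and their median log2 fold change was −0.04. Stat3, a transcription factor activated by many receptors, rose by 1.07 (standard error 0.14, edgeR adjusted p = 9.81e-08), from 81.8 ± 4.25 to 171.6 ± 28.8 CPM. The kinase gene Braf fell by 0.69 and the Ras activator genes Sos1 and Sos2 by 0.64 and 0.62 on the log2 scale (edgeR adjusted p = 1.22e-07, 5.65e-07 and 7.59e-06). Under treatment 0 were called by edgeR or DESeq2, and 10 had an unadjusted p under 0.05 by each, where 36.8% and 37.7% of all genes had one.

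Of 18 inhibitors of ErbB signalling, 7 were called lower and 2 higher with PBS, where 17.8% of all genes were called lower and 24.6% higher, and the median log2 fold change was −0.17. Dusp5 lay under the filter's cutoff in at least 1 wild-type mouse. Without it the same counts held and the median of the other 17 was −0.295. Errfi1, whose product Mig-6 binds and blocks the ErbB kinase domain, fell most, from 899 ± 73.1 CPM in wild type (SD, n = 5) to 362 ± 77.2 CPM with PBS (SD, n = 12), a log2 fold change of −1.31 (standard error 0.15, edgeR adjusted p = 1.88e-08). Cbl, a ubiquitin ligase that targets activated EGF receptor for degradation, fell by 1.15 (edgeR adjusted p = 7.6e-05), and Spry4 and Dusp4, feedback inhibitors of the Ras and ERK cascade, by 1.02 and 0.81 (edgeR adjusted p = 2.89e-08 and 1.48e-07). Spry1, of the same family as Spry4, rose by 1.03 (standard error 0.14, edgeR adjusted p = 3.21e-07).

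Errfi1 was also the only one of these inhibitors called under treatment, where edgeR called 0.935% of all genes higher and 1.22% lower. It averaged 540 ± 126 CPM with RGLS4326 (SD, n = 14), a log2 fold change of 0.58 against PBS (standard error 0.12, edgeR adjusted p = 0.00581), and lay at −0.74 against wild type (edgeR adjusted p = 9.96e-05). DESeq2 and the fit without mouse 9 each also called 1 gene of this list higher and 0 lower. Spry1 stood at −0.37 (edgeR adjusted p = 0.0205), under the size threshold. By edgeR 5 of the 18 inhibitors had an unadjusted p under 0.05, where 36.8% of all genes had one.

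Of 10 genes that respond to ERK, 7 were called higher and 1 lower with PBS, where 24.6% of all genes were called higher and 17.8% lower. Fosl1 lay under the filter's cutoff of 0.501 CPM, taken before TMM scaling, in every wild-type mouse and Fos in at least 1, so both needed the Pcy/CD1 mice to enter the test. Of the other 8, 5 were called higher and 1 lower, with a median log2 fold change of 0.84 in place of 1.118 for all 10. Myc rose by 2.39 (standard error 0.30, edgeR adjusted p = 5.38e-08), from 4.43 ± 0.686 to 23.1 ± 6.32 CPM, and Epha2 by 0.82 (standard error 0.12, edgeR adjusted p = 6.82e-07). Etv5, a member of the PEA3 group of ETS transcription factors, fell by 0.71 (standard error 0.11, edgeR adjusted p = 2.66e-06). Many signals other than ErbB receptors also act on these genes. Under treatment 0 of the 10 were called by edgeR or DESeq2, and 0 had an unadjusted p under 0.05 by either, where edgeR called 2.15% of all genes and 36.8% (37.7% by DESeq2) had such a p.

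**Figure D5:**
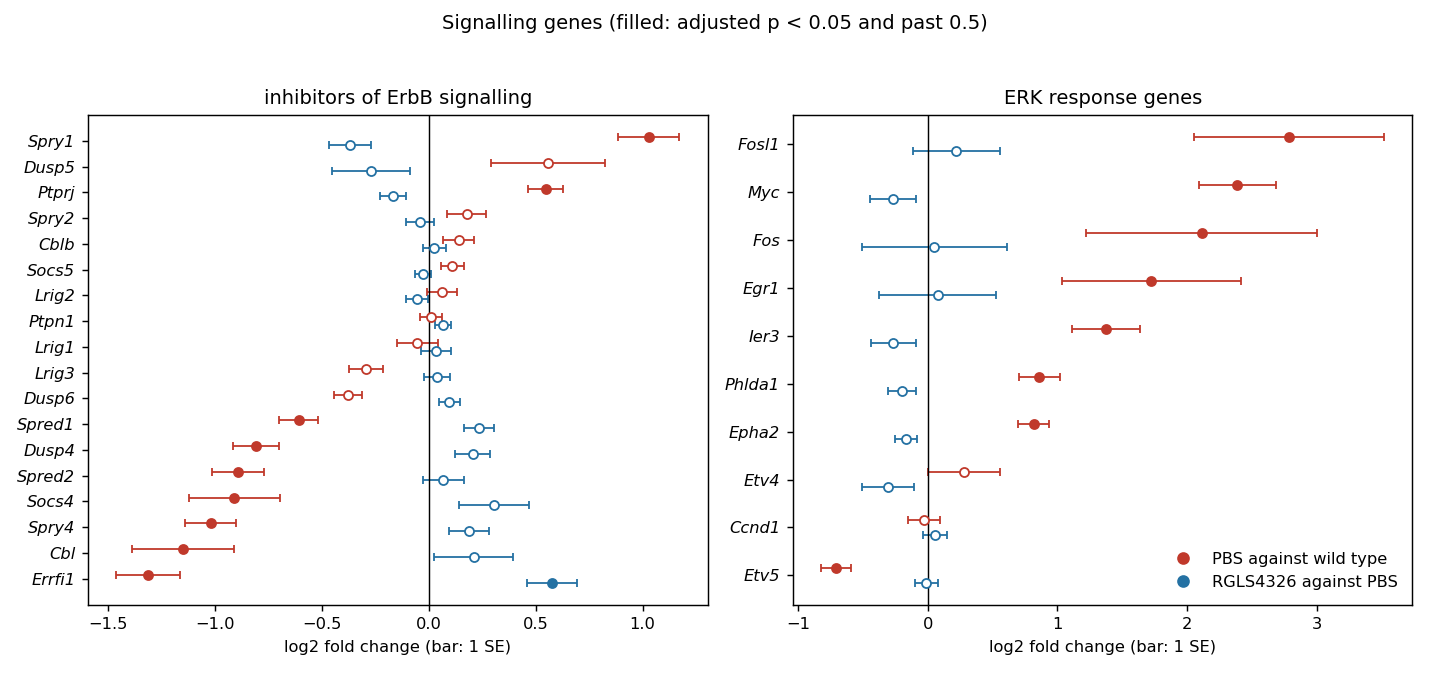
Log2 fold changes with 1 standard error of 18 inhibitors of ErbB signalling and 10 ERK response genes, red for PBS against wild type and blue for RGLS4326 against PBS, filled where called. Errfi1 is the only filled blue point, at 0.58, opposite its red point at −1.31, while no ERK response gene has a filled blue point. The PBS group stands in both comparisons, so opposite directions are not independent evidence.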

How the data were processed

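Stranded TruSeq mRNA libraries of 31 kidneys were sequenced by the authors as paired 75-base reads. Per the submitters' processing notes and the methods, reads were checked with FastQC 0.11.2, trimmed with Trim Galore, mapped with STAR to GRCm38 and counted per gene with HTSeq 0.6.1. The deposited values are raw counts, 1 per gene and mouse, with no normalization by the authors. Rows that name no gene were left out. Reads without a feature were 8.39 to 10.1%, reads not uniquely mapped 17.8 to 21.2% and ambiguous reads 0.305 to 0.411% of the column sums. Whether counting used the strand is not given in the sources used here.

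Groups and mouse numbers came from the labels. Genes passing filterByExpr (15185 of 23509) were scaled by TMM and fitted with edgeR 4.0.16 (R 4.3.3) in a quasi-likelihood model of all 31 mice, with 1 coefficient per group and no covariate, then tested with Benjamini-Hochberg adjustment. Standard errors were taken from the log2 fold changes and their F statistics (size over root F) and are approximate. CPM per kb used exon unions of GENCODE vM21, and 3′UTRs came from the same annotation. DESeq2 1.42.0 was an alternative. Relations used log2(CPM + 1) and 100000 two-sided permutations in numpy 2.4.6 with Python 3.11.15. On simulated counts for RGLS4326 against PBS, 189 of 200 genes changed by 1 log2 unit were called among 15080, and 4 unchanged ones. Changes as small as those of the members under treatment were not simulated.

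The members and gene lists were chosen with earlier results of these data known. Named beyond the members were, per list and comparison, genes among the 3 called ones with the smallest p, the other ErbB ligands and the 3 genes most like each member, of which 1 is not reported here. Adam17, Umod, Sos2, Cbl and Spry1 were named after their values were seen. Alternatives covered scaling, the filter, the test, the threshold, the mice fitted, series, replicate block, pseudocount and leaving out each mouse. Those on list counts, on relations with series means subtracted, on ranges without RGLS4326 mouse 9 and on lists without genes rare in wild type, were chosen after seeing the data. Other groups of the study were not analysed here.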

Additional observations from a re-analysis of the deposited data

Results flagged for a closer look

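Among the 10 members, each tested for a lone high or low wild-type mouse, 1 value was singled out. For Areg the highest of the 5 wild-type mice, mouse 3, lay apart from the others by 0.744 of the group's whole range in CPM, above the limit of 0.71 for 5 mice. That mouse held 4 reads and the others 0, 0, 1 and 0, so the gap is a matter of a few reads. Chance flags about 1 in 20 groups. The PBS and RGLS4326 groups hold more than 10 mice and were not tested in this way.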

How the results depend on the processing

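Counts of called members kept to within 1.5 times their value under most alternatives. With each of the 31 mice left out in turn, 4 to 6 members were called for PBS against wild type and for RGLS4326 against wild type, and 0 for RGLS4326 against PBS; each fit that called fewer than 6 also tested that many fewer members after the filter. With adjusted p under 0.05 alone, 3 members passed for RGLS4326 against PBS. With wild-type mice 3 and 4 summed as 1, 4 members were called higher and 2 lower in each comparison with wild type. For RGLS4326 against PBS that fit called 0 members. Within the second series alone, of 5 RGLS4326-treated and 2 wild-type mice, 0 members were called against wild type (5 at an unadjusted p under 0.05, as were 31.8% of all genes). In that series Egf stood at −0.50, Tgfa at 0.71, Areg at 1.14, Ereg at 2.46, Btc at 1.40 and Erbb3 at −0.37, with the same signs as over all mice. Without RGLS4326 mouse 9, 2 in place of 1 signal relay genes were called against wild type, and r of Areg with Lcn2 in the RGLS4326 group was 0.51 (permutation p = 0.0733, adjusted 0.147) in place of 0.79. The adjusted p of Tgfa and Egfr for RGLS4326 against PBS was under 0.05 in 21 and 24 of 41 alternative fits, and that of Erbb2 in 38. With 1 mouse left out, Tgfa and Egfr ran from 0.013 to 0.0942 and from 0.015 to 0.0718. The causes were not tested.

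Same-numbered mice of the PBS and RGLS4326 groups are different animals, and their deviations correlated by −0.0496 on average over 12 pairs, so the numbers do not pair them. With the replicate block, 6, 0 and 6 members were called in the 3 comparisons, and 43 in place of 327 genes over all for RGLS4326 against PBS. That count over all genes was unsteady, with 2402 by adjusted p alone, 210 with only the 2 groups fitted, 401 by DESeq2, 0 within each series alone, 145 without RGLS4326 mouse 9, and from 78 without PBS mouse 10 to 574 without RGLS4326 mouse 2. For RGLS4326 against wild type it was 372 in place of 4789 within the second series. Few reads limit Areg, Ereg and Erbb4.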
